A study of Mus musculus with 70 samples.

Results

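The erythroid miRNAs miR-451a, miR-144 and miR-486, known from red blood cells, were followed through the small RNA libraries of mouse microglia and of the other cells of the same brains. The 5 mature forms were chosen by name, with earlier results of these data known, and are mmu-miR-451a, mmu-miR-144-3p, mmu-miR-144-5p, mmu-miR-486a-5p and mmu-miR-486b-5p. They are 5 of the 1882 features kept from the count table, and 4 of them carry distinct information, because miR-486a-5p and miR-486b-5p were counted from nearly the same reads. All 5 passed the filter on low counts, together with 1067 other features.

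Wild-type C57BL/6 mice of both sexes were studied on postnatal day 6 (P6), on day 15 (P15) and as adults of 8 weeks, and each whole brain was digested to single cells. Cells that bound to a dish coated with an antibody against CD45, a surface protein of leukocytes, form the CD45+ fraction and are called microglia here, as in the study. The unbound CD45- cells are called bulk cells. Each mouse gave 1 library of each fraction, and the comparisons use 10 mice at P6 (4 female and 6 male), 12 at P15 and 12 at 8 weeks (6 of each sex), which makes 68 libraries. Meninges and blood clots were picked off the brains with forceps before digestion, per the study's methods. CD45 marks leukocytes in general, so the antibody does not separate microglia from other leukocytes of the brain or blood.

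miR-451a and miR-144 are made from 1 transcript that the erythroid transcription factor GATA1 switches on, and they are among the most abundant miRNAs of maturing red blood cells. miR-451a is unusual in that its short hairpin is cut by Argonaute 2 rather than by Dicer, so that only 1 arm yields a mature miRNA, whereas the miR-144 hairpin is cut in the usual way and yields a 5p and a 3p arm. miR-486 is made from an intron of Ank1, the gene of a protein of the red blood cell membrane skeleton, and is also known from muscle.

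The sequences are shown because the members differ in how they are cut from their hairpins and because none of those printed could be counted from the reads of another. In the mature forms the seed, bases 2 to 8 from the 5′ end, is in capitals, and in the hairpins the capitals mark the mature miRNA. They are RefSeq sequences (GRCm38.p6), in which 3 of the 5 members had an entry. Those without an entry are miR-486a-5p and miR-486b-5p.
miR-451a: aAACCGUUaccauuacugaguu
miR-144-3p: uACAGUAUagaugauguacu
miR-144-5p: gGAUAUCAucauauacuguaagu
Hairpin of miR-451a: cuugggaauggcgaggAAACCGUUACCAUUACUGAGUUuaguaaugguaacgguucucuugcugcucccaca
Hairpin of miR-144: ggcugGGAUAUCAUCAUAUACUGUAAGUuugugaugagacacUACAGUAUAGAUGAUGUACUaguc
The mature miR-451a runs from base 17 to base 38 of its hairpin and so along its arm into the loop, while miR-144-5p and miR-144-3p lie on either side of their loop. None of the other mature sequences in the table of 1738 had the seed of miR-451a, miR-144-3p or miR-144-5p. miR-101a-3p shared bases 2 to 7 with miR-144-3p but not base 8.

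In GRCm38 (GENCODE M21), Mir144 lies at chr11:78073005-78073070 and Mir451a at chr11:78073170-78073241, both on the plus strand, with 99 bases between the hairpins and no host gene annotated over them. Mir451b lies at the coordinates of Mir451a on the minus strand. miR-451b had 0 counts in all 70 libraries of the table, against 4743354 counts of miR-451a, so the counts of this locus came from the plus strand. A count of 0 allows up to 3 counts, or 0.343 to 1.79 CPM (the count as a share of its library's total, rescaled so that each library sums to the same number) in the libraries analysed. Mir486 lies at chr8:23142555-23142682 on the plus strand and Mir3107, the RefSeq synonym of which is mir-486b, at chr8:23142573-23142662 on the minus strand. The hairpins overlap, and both lie in introns of Ank1 on the plus strand and of Gm15816 on the minus strand. The counts of miR-486a-5p and miR-486b-5p were identical in 39 of 70 libraries, and the largest difference was 13 counts. Relative to the miR-486a-5p count of a library, the difference was at most 29.0%. The totals over all libraries were 11421 and 11351. Values of miR-486a-5p are therefore given below for both, and neither count can be assigned to 1 of the hairpins.

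Library totals ranged from 1678034 to 8747394 counts. Of the marker lists, all 4 myeloid miRNAs (miR-223 and miR-142a arms) were higher in microglia over all ages, at a median log2 fold change of 6.84, and all 5 neuronal, 3 oligodendrocyte and 2 endothelial miRNAs were lower. The lymphocyte list did not follow the CD45 label, since miR-150-5p was lower in microglia by 1.76 ± 0.11 on the log2 scale (SE, adjusted p = 2.56e-09) and miR-155-5p differed by 0.36 ± 0.073 without passing the test. Its summed level was 479 to 4969.5 CPM in microglial libraries and 1068 to 9355 CPM in bulk libraries. Of the 4 mural cell miRNAs, 0 were called in either direction (median -0.38). The summed level of the neuronal list was 13849 to 51555 CPM in microglial libraries and 49179 to 165059 CPM in bulk libraries, so the defining markers of other brain cells were not at 0 in microglia. P6 female mouse 6 was left out of all comparisons, since its libraries are not among those in the study's source data, and its values are given in the closing section.

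All 5 members were higher in microglia than in bulk cells at each of the ages. Of all 1072 features tested, 17.4% were called higher at P6, 21.3% at P15 and 21.2% at 8 weeks. Calls are those of limma's TREAT test against a log2 fold change of 1 at a Benjamini-Hochberg adjusted p under 0.05. Over the members the median log2 fold change at P6, P15 and 8 weeks was 2.38, 3.17 and 1.94, beside 0.25, 0.28 and -0.10 for all features. In such fractions, fewer red blood cells and less of their RNA per cell cannot be told apart, and neither can RNA held by red blood cells and RNA held by the sorted cells themselves.

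miR-451a was the most abundant member in reads. At P6 its level in microglia ranged from 6236 to 35139 CPM with a median of 12490, and in bulk cells from 1245 to 1789 CPM with a median of 1487 (n = 10 each). At P15 it ranged from 26392 to 92303 CPM in microglia (median 39751) and from 2513 to 8321 CPM in bulk cells (median 3932, n = 12 each). At 8 weeks the ranges were 11021 to 34978 CPM in microglia (median 20754) and 2182 to 5058 CPM in bulk cells (median 3584, n = 12 each). At each age the lowest microglial library lay above the highest bulk library. In microglia of P15 female mice 1 and 3 miR-451a ranked 1st of all features by CPM, and in the other P15 microglial libraries it ranked no lower than 11th, whereas in bulk cells of P6 it ranked between 59th and 83rd. On the log2 scale the difference between fractions was 2.99 ± 0.23 (SE, adjusted p = 3.47e-11) at P6, 3.52 ± 0.20 (adjusted p = 2.89e-18) at P15 and 2.53 ± 0.20 (adjusted p = 4.36e-10) at 8 weeks.

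miR-144-3p, the more abundant arm of miR-144 in these reads, ranged from 1605 to 9008 CPM in microglia at P6 (median 2667), against 471 to 670 CPM in bulk cells (median 554). At P15 it ranged from 3553 to 14352 CPM (median 8496), against 793 to 2461 CPM (median 1153). At 8 weeks it ranged from 1431 to 5102 CPM (median 2563), against 470 to 1170 CPM (median 804). The fractions again did not overlap at any age, but at 8 weeks the gap between them was small. On the log2 scale the difference between fractions was 2.34 ± 0.24 (SE, adjusted p = 3.44e-06) at P6, 2.77 ± 0.21 (adjusted p = 2.60e-11) at P15 and 1.74 ± 0.22 (adjusted p = 0.0015) at 8 weeks.

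miR-144-5p, cut from the other side of the same hairpin, was counted far less often. Microglial libraries held 22.8 to 149.5 CPM at P6, 103.9 to 285 CPM at P15 and 47.0 to 119 CPM at 8 weeks. Bulk libraries held 2.79 to 14.4 CPM, 11.9 to 39.3 CPM and 8.22 to 20.6 CPM. No bulk library reached a microglial library of its age, and the log2 fold changes were 3.21 ± 0.29, 3.21 ± 0.22 and 2.54 ± 0.23 (SE, adjusted p = 1.88e-09, 2.60e-14 and 1.92e-08 at P6, P15 and 8 weeks).

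miR-486a-5p, from the second locus, had the fewest counts together with miR-486b-5p, 19 to 1043 per library. It ranged from 8.75 to 81.0 CPM in microglia at P6 (median 28.9), against 2.51 to 10.7 CPM in bulk cells (median 6.52). At P15 it ranged from 62.1 to 241 CPM (median 89.9), against 7.87 to 23.7 CPM (median 11.4). At 8 weeks it ranged from 23.9 to 84.2 CPM (median 40.6), against 5.91 to 15.6 CPM (median 12.2). The fractions overlapped at P6, where the microglial library of male mouse 3 lay below the highest bulk libraries, and not at the later ages. On the log2 scale the difference between fractions was 2.34 ± 0.30 (SE, adjusted p = 0.000114) at P6, 3.17 ± 0.23 (adjusted p = 1.19e-12) at P15 and 1.92 ± 0.24 (adjusted p = 0.000386) at 8 weeks.

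**Figure D1:**
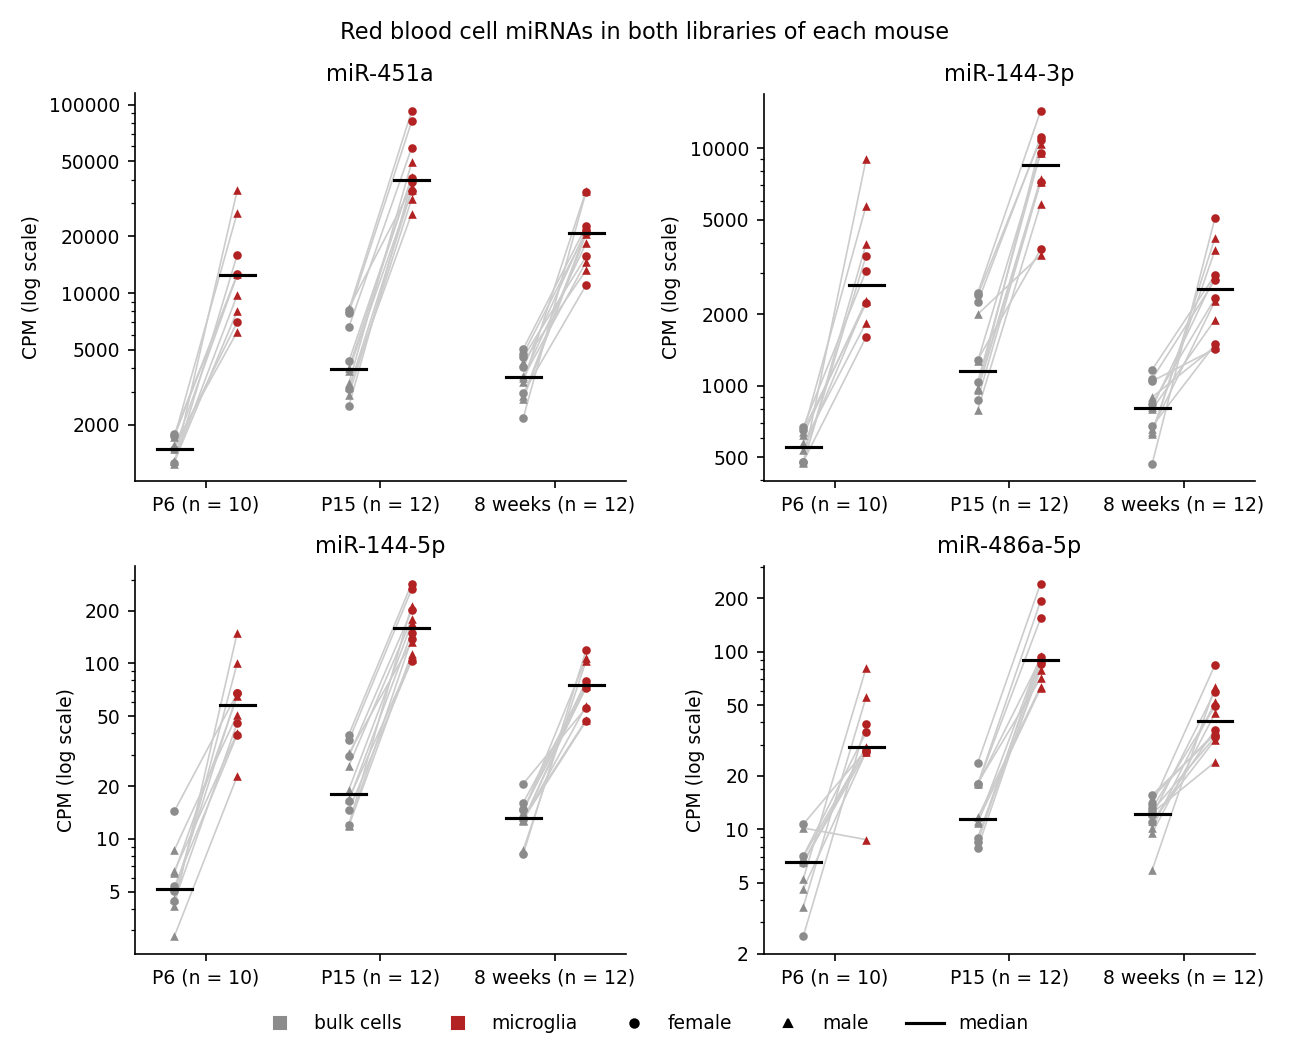
Level of miR-451a, miR-144-3p, miR-144-5p and miR-486a-5p in each library in CPM on a log axis, by age, with bulk cells in grey and microglia in red, a line joining both libraries of a mouse and a black bar at the median. All lines rise from bulk cells to microglia except that of miR-486a-5p in 1 P6 mouse, and the microglial values are highest at P15.

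The 5 members together held 3.41% to 10.7% of the counts of P15 microglial libraries, 1.26% to 4.0% at 8 weeks and 0.812% to 4.45% at P6. In bulk libraries they held at most 1.07%, a share reached at P15. Because the members take up this much of a library, the fits were repeated with their counts removed from the totals and the scaling, and all 5 were again called higher at each age.

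The comparison within each mouse gave the same direction. The ratio of microglia to bulk cells for miR-451a ranged from 4.0 in P6 male mouse 3 to 28.2 in P6 male mouse 5, with a median of 7.41 at P6. At P15 it ranged from 4.40 in male mouse 1 to 15.4 in female mouse 5 (median 10.3), and at 8 weeks from 3.08 in male mouse 3 to 15.8 in female mouse 4 (median 4.77). The level in microglia was the higher in 34 of 34 mice for miR-451a, miR-144-3p and miR-144-5p and in 33 of 34 for miR-486a-5p. An exact two-sided sign-flip test gave p = 0.00195 for miR-451a at P6 and p = 0.000488 at P15 and at 8 weeks, the smallest values that 10 and 12 mice allow. Adjusted over the 12 tests of members and ages, the largest p was 0.00391, for miR-486a-5p at P6, where male mouse 3 had a ratio of 0.869.

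Whether mice with more miR-451a in bulk cells also had more in microglia was examined at each age. Across mice, Pearson's r between the libraries of a mouse was -0.065 at P6 (n = 10, Spearman's rho -0.26, permutation p = 0.855 and 0.469), 0.70 at P15 (n = 12, rho 0.62, p = 0.0102 and 0.035) and -0.29 at 8 weeks (n = 12, rho -0.11, p = 0.364 and 0.731). The value at P15 did not pass after adjustment over 12 such relations (adjusted p = 0.122, permutation test), and r was 0.82 without the 2 mice farthest from the median. With CPM scaled by TMM, r at P15 was 0.82 with an adjusted p of 0.0236, so that the call rested on the scaling. At P15, female mice 1, 2 and 3 had the highest levels in microglia, 59007 to 92303 CPM, and were 3 of the 4 mice with the highest levels in bulk cells. The fourth, male mouse 1, had 8321 CPM in bulk cells but 36606 CPM in microglia.

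**Figure D2:**
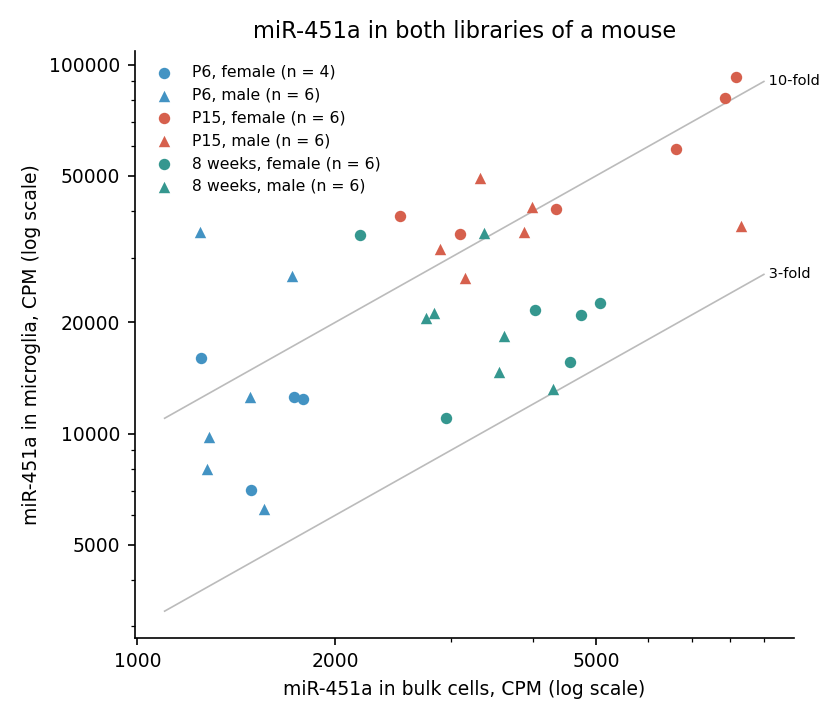
miR-451a in microglia against bulk cells of the same mouse in CPM, both axes on a log scale, colored by age and with females as circles and males as triangles. Grey lines mark ratios of 3 and 10; the P15 mice lie highest, and P6 mice vary in microglia while their bulk levels lie between 1245 and 1789 CPM.

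Other miRNAs known to be abundant in red blood cells were called higher only in part. Of a list of 8 (miR-486a-3p, miR-486b-3p, miR-16-5p, miR-92a-3p, miR-25-3p, miR-93-5p, miR-185-5p and miR-363-3p), 4 were higher in microglia over all ages, where 23.3% of all features were. Over all ages 0 of the 8 were below 0. Without a fold change threshold the moderated test, edgeR and DESeq2 called 7, 6 and 6 of them higher. Those tests called 47.7%, 44.7% and 44.4% of all features higher. By age with TREAT, 1 of the 8 was called higher at P6, 6 at P15 and 4 at 8 weeks, whereas the members were called at each age. miR-16-5p, which is also made by most other cells, was higher by 2.13 ± 0.05 (SE, adjusted p = 3.96e-32) on the log2 scale. miR-25-3p, miR-92a-3p and miR-93-5p, from the miR-17 and miR-25 clusters, were higher by 1.94 ± 0.08, 1.87 ± 0.07 and 1.62 ± 0.07. miR-363-3p differed by 0.087 ± 0.13 and miR-486b-3p by 0.45 ± 0.21, and neither passed the test. The median of this list over all ages was 1.40, beside 2.5 for the members and 0.29 for all features. Muscle is the other tissue known for miR-486. The muscle miRNAs miR-1a-3p, miR-133a-3p and miR-206-3p were all lower in microglia over all ages, by 1.52 to 2.02 on the log2 scale, and their summed level in microglia was 43.4 to 273 CPM.

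**Figure D3:**
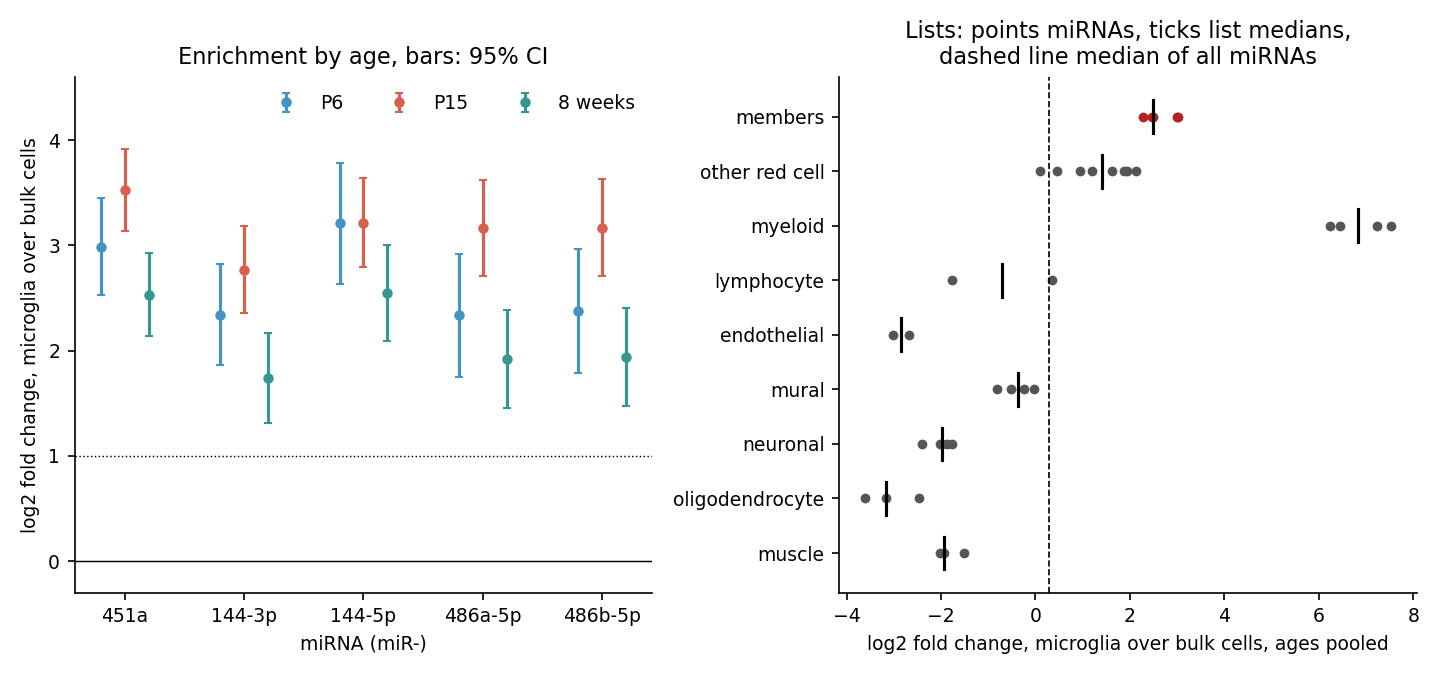
Left, log2 fold change of microglia over bulk cells for each member by age, with 95% confidence intervals and a dotted line at the tested threshold of 1; right, the fold change over all ages of each miRNA in 9 lists, with a black tick at each list's median and a dashed line at the median of all features. All member intervals lie above 1, and the members lie between the other red blood cell list and the myeloid list.

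The members were highest at P15 in microglia. From P6 to P15, 3 of the 5 rose in microglia, whereas 0.746% of all features were called higher. The 3 include miR-486a-5p and miR-486b-5p, which were counted from nearly the same reads and are not separate evidence. miR-451a rose by 1.95 ± 0.22 on the log2 scale (SE, adjusted p = 0.0013), from a median of 12490 CPM to 39751 CPM. The ranges of the ages overlapped, since 2 P6 males, mice 5 and 6, had 35139 and 26702 CPM. miR-486a-5p and miR-486b-5p rose by 1.76 ± 0.24 and 1.77 ± 0.24 (adjusted p = 0.0361 and 0.0356). The difference was 1.63 ± 0.22 for miR-144-5p (adjusted p = 0.0857) and 1.52 ± 0.23 for miR-144-3p (adjusted p = 0.319), and neither passed the test. All 5 were called higher by 3 tests against no change at all, the moderated limma test, edgeR's quasi-likelihood test and DESeq2, which called 15.9%, 15.9% and 17.5% of all features higher.

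The call of miR-451a held in each alternative and without any single mouse. That of the miR-486 entries was lost when any of 7 mice was left out (P15 females 1, 2 and 3, P15 males 1 and 5, P6 female 1 or P6 male 3), which left 1 member called. Median levels at P15 were above P6 for each member in both fractions. Of the 8 miRNAs of the other red blood cell list, 0 were called in microglia between these ages with TREAT. The moderated test, edgeR and DESeq2 without a threshold each called 4 of the 8 higher, beside 15.9%, 15.9% and 17.5% of all features. DESeq2 also called 1 of the 8 lower, beside 17.8% of all features. The median of that list was 0.37 beside 1.76 for the members and -0.0092 for all features. The summed level of the myeloid list was 11374 to 34916 CPM in P15 microglia and 14121 to 34091 CPM in P6 microglia, and 0 of its 4 miRNAs changed.

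From P15 to 8 weeks, 0 members changed in microglia with the TREAT test (0 also at an unadjusted p under 0.05), while 4.57% of all features did. miR-451a differed by -0.84 ± 0.20 and miR-144-3p by -1.31 ± 0.22 (SE, adjusted p = 1 and 0.796). All 5 were lower by the moderated limma test, edgeR and DESeq2 with no fold change threshold, which called 19.5%, 21.9% and 25.1% of all features lower, so the differences were set apart from 0 but not from 2-fold. Between P6 and 8 weeks, 0 members were called in microglia (0 at an unadjusted p under 0.05; 16.6% of all features called), and miR-451a differed by 1.12 ± 0.22 (adjusted p = 0.932). The 3 tests without a threshold called 4 members higher, beside 23.6%, 22.8% and 24.1% of all features in the same order of tests. The exception was miR-144-3p, which differed by 0.21 ± 0.24. These age comparisons share libraries with each other.

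In bulk cells 1 member was called over the 3 pairs of ages. From P6 to P15, 0 members were called (2 at an unadjusted p under 0.05; 3.54% of all features called), with miR-451a at 1.42 ± 0.24 (SE, adjusted p = 0.527). All 5 were called higher by the moderated test, edgeR and DESeq2 without a threshold, as were 17.8%, 14.5% and 17.9% of all features. The bulk levels of miR-451a at these ages, up to 1789 CPM at P6 and from 2513 CPM at P15, did not overlap. From P15 to 8 weeks miR-451a differed by 0.16 ± 0.22 and 0 members were called (0 at an unadjusted p under 0.05; 11% of all features called). Without a threshold the moderated test and edgeR called 0 members (50.7% and 49.4% of all features), and DESeq2 called 1, miR-144-3p (48.8% of all features).

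Between P6 and 8 weeks, 1 member was called in bulk cells, with 13.2% of all features called higher. miR-451a rose by 1.58 ± 0.24 (SE, adjusted p = 0.0409), from 1245 to 1789 CPM at P6 to 2182 to 5058 CPM at 8 weeks, with no overlap. This call was lost without any of 8-week females 1, 3 and 6 or males 2 and 3 (adjusted p 0.0505 to 0.0668) and with other scalings. All 5 were called higher by the moderated test, edgeR and DESeq2 without a threshold, beside 38.8%, 31.7% and 30.7% of all features.

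No difference in the size of the enrichment between ages passed the TREAT test. Of the 5 members, 0 were called for P15 against P6, 8 weeks against P15 and 8 weeks against P6 (0 at an unadjusted p under 0.05 in each), beside 1.59%, 3.36% and 14.6% of all features. The enrichment of miR-451a was lower at 8 weeks than at P15 by 0.99 on the log2 scale (95% interval of the difference -1.55 to -0.44), and that of miR-486a-5p by 1.24 (-1.90 to -0.59), so that a difference of more than 2-fold was not shown. For 8 weeks against P15 the moderated test, edgeR and DESeq2 without a threshold each called 4 of 5 members lower, all but miR-144-5p, and 25.2%, 21.1% and 20.1% of all features. They called 0 members for P15 against P6, beside 25.1%, 20.1% and 22.8% of all features. For 8 weeks against P6 they also called 0, beside 53.6%, 44.8% and 46% of all features. Of these tests, edgeR and DESeq2 had no term for mouse and took the libraries of a mouse as independent.

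No member was called different between the sexes. In 6 comparisons of males with females, 1 for each age and fraction, 0 members and 0% of all features were called with TREAT (0 members at an unadjusted p under 0.05), and 0 members were called with the moderated test, edgeR or DESeq2, which called 0.326%, 0.373% and 0.297% of the features over the 6 comparisons. The widest difference was that of miR-486 in P15 microglia, followed by miR-144-3p in P15 bulk cells and miR-451a in P15 microglia. In P15 microglia miR-451a ranged from 34819 to 92303 CPM in females (median 49845) and from 26392 to 49276 CPM in males (median 35843), and males minus females was -0.66 ± 0.28 (SE, n = 6 each, adjusted p = 1, limma), with a 95% interval of -1.20 to -0.11. miR-486a-5p differed by -0.85 ± 0.26 (adjusted p = 1, limma), with 84.6 to 241 CPM in females and 62.1 to 94.4 CPM in males. miR-144-3p in P15 bulk cells differed by -0.73 ± 0.33 (adjusted p = 1, limma), with 874 to 2461 CPM in females and 793 to 2003 CPM in males. The sexes overlapped in all of these.

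Members of both loci varied together between microglial libraries. Within each age, r between pairs of the 4 distinct members ranged from 0.55 to 0.95 in microglia, and 17 of 18 passed after adjustment over 36 relations (15 of 18 by rho). How often pairs of other features would pass was not tested, so the count has no background beside it. The sexes were pooled, and values of a library share its total. For miR-451a and miR-486a-5p, which lie on different chromosomes, r in microglia was 0.85 at P6 (n = 10, rho 0.67), 0.86 at P15 (n = 12, rho 0.81) and 0.82 at 8 weeks (n = 12, rho 0.75), with adjusted p of 0.00198, 0.00294 and 0.00247 for r and 0.0607, 0.00636 and 0.0149 for rho (permutation tests). Without the 2 libraries farthest from the median, r was 0.67, 0.82 and 0.88. In bulk cells the same pair gave r of -0.41, 0.66 and 0.28 (rho -0.33, 0.38 and 0.45, adjusted permutation p for r of 0.271, 0.0362 and 0.416), and miR-486a-5p had only 19 to 121 counts there.

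In bulk cells miR-451a varied together with miR-144-3p, the more abundant arm of the neighbouring hairpin, most closely at P15 and 8 weeks. Between miR-451a and miR-144-3p, r was 0.66 at P6 (rho 0.77), 0.96 at P15 (rho 0.88) and 0.98 at 8 weeks (rho 0.99), with adjusted permutation p of 0.0601, 0.00036 and 0.00036. Without the 2 farthest libraries these were 0.48, 0.96 and 0.96. Between miR-451a and miR-144-5p, r in bulk cells was 0.11 at P6 (rho 0.079), 0.87 at P15 (rho 0.82) and 0.82 at 8 weeks (rho 0.88), with adjusted permutation p of 0.774, 0.00186 and 0.00184, and without the 2 farthest libraries -0.57, 0.81 and 0.76. In microglia, r between miR-451a and miR-144-3p was 0.95, 0.61 and 0.65 at P6, P15 and 8 weeks (rho 0.90, 0.70 and 0.55). For miR-451a and miR-144-3p in P15 microglia it was 0.37 without the 2 farthest libraries, so the relation there rested on them. Between miR-451a and miR-144-5p, r in microglia was 0.95, 0.88 and 0.88 at these ages (rho 0.90, 0.78 and 0.83), and at P15 0.73 without the 2 farthest libraries.

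**Figure D4:**
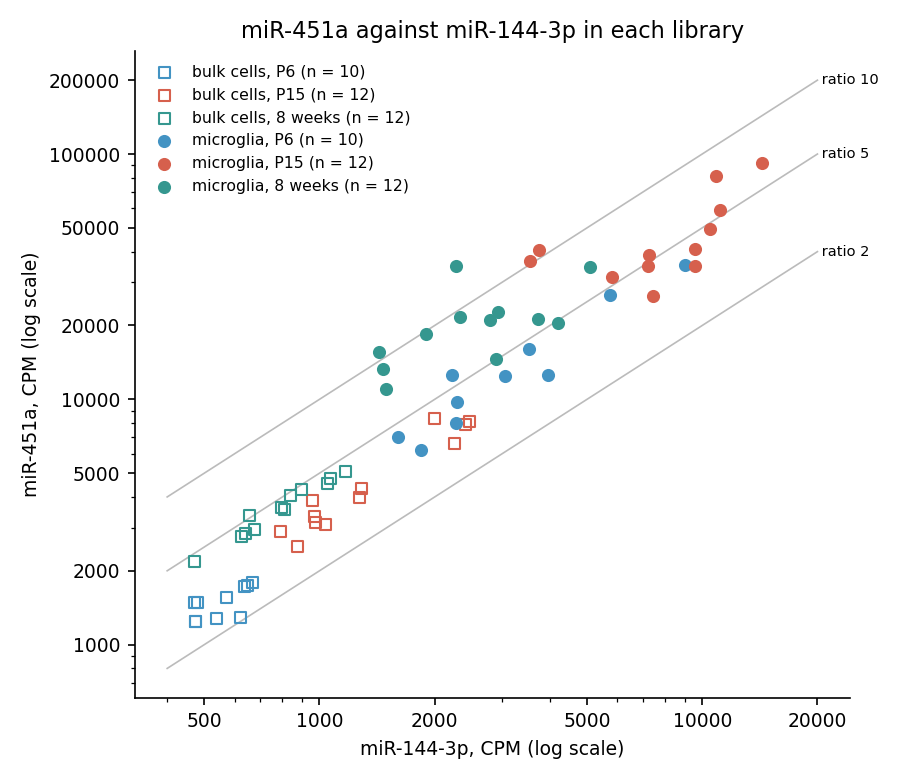
miR-451a against miR-144-3p in each of the 68 libraries in CPM, both axes on a log scale, with bulk cells as open squares and microglia as filled circles, colored by age. Grey lines mark equal ratios of 2, 5 and 10; bulk libraries of an age lie along 1 line, and the lines shift upward with age.

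The ratio of miR-451a to miR-144-3p within a library was therefore compared. miRNAs differ in how well they are captured in a library, so such a ratio is read across libraries and not as a ratio of molecules. In bulk cells it was 2.07 to 3.15 at P6 (median 2.67), 2.88 to 4.15 at P15 (median 3.29) and 4.32 to 5.13 at 8 weeks (median 4.43). The 12 bulk libraries of 8 weeks thus lay within 1.19-fold of each other and above all earlier ones. The log2 ratio was higher by 0.33 at P15 than at P6 and by 0.44 at 8 weeks than at P15 (adjusted permutation p = 0.000936 and 0.00018, over 36 tests).

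In microglia the same ratio was higher and more spread. It was 3.17 to 5.65 at P6 (median 4.18), 3.55 to 10.8 at P15 (median 5.33) and 4.88 to 15.4 at 8 weeks (median 7.62). It was higher in microglia than in bulk cells of the same mouse in 34 of 34 mice, by 0.63 ± 0.32 (SD) at P6, 0.76 ± 0.48 at P15 and 0.79 ± 0.43 at 8 weeks on the log2 scale (exact sign-flip test, adjusted p = 0.00469, 0.00195 and 0.00195). From P6 to 8 weeks it rose by 0.94 in microglia (adjusted permutation p = 0.00036). The step from P15 to 8 weeks was 0.48 with an adjusted permutation p of 0.0508, that from P6 to P15 was 0.46 with 0.031, and both crossed the threshold when single mice were left out.

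The arms of miR-144 also differed in balance between the fractions. miR-144-3p was counted 40.5 to 80.3 times as often as miR-144-5p in P6 microglia and 46.3 to 199.9 times in P6 bulk cells. At 8 weeks the ratios were 21.3 to 47.1 in microglia and 46.0 to 78.9 in bulk cells. On the log2 scale the ratio was lower in microglia by 0.86, 0.44 and 0.80 at P6, P15 and 8 weeks, in 32 of 34 mice, with adjusted p of 0.00469, 0.0155 and 0.00195 (exact sign-flip test). Between P6 and 8 weeks it fell by 0.65 in microglia and by 0.71 in bulk cells (adjusted permutation p = 0.00036 and 0.00315).

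The ratio of miR-486a-5p to miR-486a-3p showed the widest gap between fractions. Its 5p count comes from nearly the same reads as that of miR-486b-5p, so the ratio is not the balance of 1 hairpin. miR-486b-3p was left out of it, at a mean of 7.70 CPM in microglia and 6.23 CPM in bulk cells. For miR-486a-3p these means were 27.2 and 12.3 CPM. miR-486a-5p was counted more often than miR-486a-3p in all 34 microglial libraries, at 1.12 to 5.00 times, with medians of 2.44, 2.35 and 2.24 at P6, P15 and 8 weeks. In bulk cells the ratio ranged from 0.255 to 2.59, with medians of 1.05, 1.05 and 0.865. The log2 ratio was higher in microglia by 1.46 ± 0.89 (SD), 1.38 ± 0.74 and 1.07 ± 0.69, in 33 of 34 mice (exact sign-flip test, adjusted p = 0.00469, 0.00195 and 0.00315). miR-486a-3p itself was called higher in microglia only at P15, by 1.76 ± 0.23 (SE, adjusted p = 0.00213), and differed by 0.92 ± 0.31 at P6 and 0.88 ± 0.24 at 8 weeks. These arms had few counts in bulk cells, 14 to 180 for miR-486a-3p, and the ratio was not shown to differ between ages in either fraction.

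The ratio of miR-451a to miR-486a-5p had close medians across ages in microglia, 443, 462 and 458 at P6, P15 and 8 weeks. Its differences between ages in microglia were 0.15, 0.047 and 0.20 on the log2 scale for P15 against P6, 8 weeks against P15 and 8 weeks against P6 (adjusted permutation p = 0.463, 0.765 and 0.338). In bulk cells the medians were 212, 343 and 307. The ratio was higher in microglia than in bulk cells of the same mouse by 0.70 ± 0.86 (SD) at P6 on the log2 scale, in 9 of 10 mice, by 0.36 ± 0.50 at P15, in 9 of 12 mice, and by 0.58 ± 0.39 at 8 weeks, in 11 of 12 mice (exact sign-flip test, adjusted p = 0.0543, 0.0404 and 0.00315). The call at P15 was lost without any one of 8 of the 12 mice (adjusted p up to 0.077), and P6 passed without female mouse 2 (adjusted p = 0.00781) or with female mouse 6 included (adjusted p = 0.0385).

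**Figure D5:**
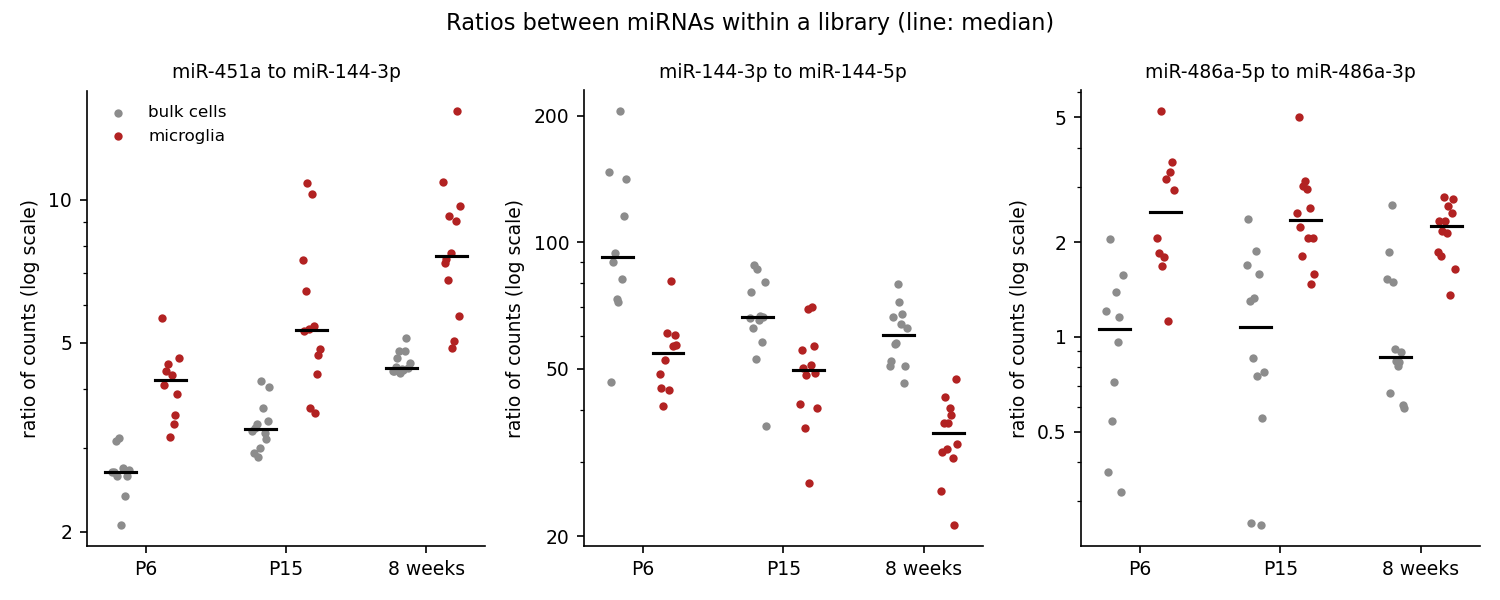
Ratio of counts within each library on log axes for miR-451a to miR-144-3p, miR-144-3p to miR-144-5p and miR-486a-5p to miR-486a-3p, by age, with bulk cells in grey, microglia in red and black bars at the medians (n = 10, 12 and 12). The first ratio is higher in microglia and at later ages, the second is lower in microglia, and the third is near 1 in bulk cells and above 1 in microglia.

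The features most like miR-451a were sought by the correlation of their deviations from the age and sex means over the 34 libraries of a fraction, as a description. These libraries share the scaling of each library, which can add to any such likeness. In microglia miR-144-5p came first with an r of 0.92, followed by the non-member miR-486a-3p with 0.85, and r was 0.84 for miR-486a-5p and 0.76 for miR-144-3p. The next non-members were miR-22-3p (0.65), the unannotated candidate chr2_25261 (0.64), miR-486b-3p (0.62) and miR-106b-3p (0.58). The myeloid miR-142a-3p had an r of 0.32 and miR-223-3p of 0.26.

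In bulk cells miR-144-3p came first with 0.97, and r was 0.71 for miR-144-5p and 0.47 for miR-486a-5p. The non-members with the highest r were miR-503-5p (0.78), the candidate chr3_30568 (0.78), miR-142a-3p (0.77), miR-142a-5p (0.70) and miR-140-5p (0.68). miR-142a is known as a miRNA of blood-forming cells in general, and its arms varied with miR-451a between bulk libraries. The rest of the myeloid list did not, since r was -0.27 for miR-223-3p and -0.029 for miR-223-5p. Their mean levels in bulk cells were 13.9 and 0.046 CPM. The summed level of the 4 myeloid miRNAs in bulk cells was 106 to 178 CPM at P6, 256 to 503 CPM at P15 and 157 to 319 CPM at 8 weeks. Its part in the miR-451a levels of bulk cells was not tested.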

How the data were processed

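Small RNA libraries of 35 mice were deposited as a table of raw counts per miRNA and library. According to their methods, the authors trimmed reads with fastp (0.20.0 in the submitters' processing notes) and counted them against miRBase and the mouse genome (GRCm38) with miRDeep2, which gives a read to every precursor it matches. Of 2029 entries under 1885 names, the entry with the largest total was kept for each name and 3 duplicate candidates were dropped. The 1072 features that reached 1 CPM (the count relative to its library total) in 5 or more libraries were tested. Floors cover counting error only. The 95% intervals come from the fitted model and include the variation between mice.

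Counts were scaled with TMM and fitted in R 4.3.3 by the voom method of limma 3.58.1 (with edgeR 4.0.16) as 12 group means, averaged over the sexes, with mouse as a random effect. Adjusted p-values are from TREAT unless another test is named. Both libraries of a mouse carry its number in their labels and came from 1 brain, which is where the pairing comes from. Their deviations correlated at 0.0739 on average, 9 mice were above 0.1, and the consensus correlation was 0.124. P6 female mouse 6 was left out. Paired ratios add 0.5 counts before the log, and permutation tests used 100000 resamples (scipy 1.17.1). The members, lists, tests and named miRNAs (the members, the lists and the 5 non-members nearest to miR-451a in each fraction) were chosen with earlier results of these data known, and the tests of ratios between miRNAs after the values were seen. The scripts were tested on simulated data. Alternatives included DESeq2 1.42.0. The tests of edgeR and DESeq2 had no term for mouse and so did not use the pairing.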

Additional observations from a re-analysis of the deposited data

Results flagged for a closer look

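Of 60 groups of one member, age, sex and fraction that were examined, 4 held a library set apart from the rest of its group, and chance sets apart about 1 in 20. miR-451a in microglia of 8-week male mouse 4 was 34980 CPM, against 21250 CPM in the next male. miR-451a in bulk cells of P15 male mouse 1 was 8321 CPM, against 3991 CPM in the next male. miR-144-5p in bulk cells of P6 female mouse 2 was 14.41 CPM, against 5.348 CPM in the nearest of the other 3 females. miR-144-5p in bulk cells of 8-week male mouse 1 was 8.648 CPM, the lowest, against 12.6 CPM in the next male.

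P6 female mouse 6, which entered no comparison, showed the same direction as the other mice. Its miR-451a was 7696 CPM in microglia and 1322 CPM in bulk cells.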

How the results depend on the processing

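All 5 members were called higher in microglia at each age in each of 13 alternatives and without any of the 34 mice. The age results moved. From P6 to P15 in microglia the number of members called was 5 with the moderated test, edgeR or DESeq2, 1 with library size alone, 1 with the stricter filter, and 1 to 4 without single mice. From P15 to 8 weeks it was 5 with the 3 tests without a threshold and 1 with library size alone, and from P6 to 8 weeks 4 with those tests. In bulk cells it was 5 with them from P6 to P15, 1 with DESeq2 from P15 to 8 weeks, and from P6 to 8 weeks 5 with them, 0 with DESeq2 size factors, library size alone, members left out of the scaling, no filter or entries of a name summed, and 0 to 1 without single mice. For 8 weeks against P15 the enrichment differed for 4 with those 3 tests.

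Signs turned only for differences that no test called. The enrichment of miR-144-5p at P15 minus P6 (0.0063) was -0.063 with edgeR, -0.13 with DESeq2, -0.10 with DESeq2 size factors, -0.29 with library size alone, -0.051 with no filter, -0.18 with the stricter filter, -0.026 with P6 female mouse 6, -0.087 with entries summed and -0.20 to 0.11 without single mice. With mouse as a fixed replicate block it was -0.022, and the block, or leaving it out, changed no count of members called. At 8 weeks minus P15 in bulk cells miR-451a (0.16) was -0.11 with DESeq2, -0.015 with DESeq2 size factors and -0.33 with library size alone. It was -0.0068 with members left out and -0.040 with entries summed. In the same comparison with library size alone, miR-486a-5p (0.35 in the main fit) was -0.15 and miR-486b-5p (0.34) was -0.16. miR-144-3p at 8 weeks minus P6 in microglia was -0.26 with library size alone. Among ratios between miRNAs, leaving out single mice turned miR-451a to miR-486a-5p at 8 weeks minus P15 in microglia (-0.030 to 0.10) and miR-486a-5p to miR-486a-3p at 8 weeks minus P15 in bulk cells (-0.024 to 0.27) and at P15 minus P6 in bulk cells (-0.098 to 0.23) and in microglia (-0.14 to 0.10). Why these settings differ was not tested.

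Library size alone moved the median of all features by -0.46 at 8 weeks minus P6 in microglia and -0.48 at 8 weeks minus P15 in bulk cells, and calls over all features went from 77 higher and 101 lower to 39 and 175, and from 65 and 53 to 30 and 105. Depth limits the members with few counts in bulk libraries, which were 14 to 180 for miR-486a-3p, 19 to 121 for miR-486a-5p and 20 to 266 for miR-144-5p.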

Other observations

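Of the 8 other miRNAs known from red blood cells, 4 fell and 1 rose in bulk cells between P6 and 8 weeks, where 12.4% of all features were called lower and 13.2% higher. Both counts were the same with DESeq2 size factors, library size alone and members left out of the scaling. Of the 5 members, miR-451a was called higher in this comparison, a call that was lost with 5 other settings and without any of 5 mice, and 0 of the other 4 were called. miR-363-3p fell by 2.01 ± 0.24 on the log2 scale (SE, adjusted p = 0.000255, limma), miR-92a-3p by 1.75 ± 0.14 (adjusted p = 7.98e-06), miR-25-3p by 1.59 ± 0.14 (adjusted p = 0.000405) and miR-93-5p by 1.30 ± 0.13 (adjusted p = 0.0455). miR-185-5p rose by 1.59 ± 0.12 (adjusted p = 1.11e-05), and miR-16-5p differed by -0.0071 ± 0.092. miR-92a-3p, miR-25-3p and miR-93-5p belong to clusters known to be active in dividing cells of many types. In microglia 0 of the 8 were called between P6 and P15 or between P6 and 8 weeks with TREAT, and between P6 and 8 weeks each test without a threshold called 4 higher and 4 lower. In that comparison the moderated test, edgeR and DESeq2 called 23.6%, 22.8% and 24.1% of all features higher and 30.3%, 31.4% and 32.4% lower.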
